A study of Mus musculus with 6 samples.

Results

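Cytosine methylation at CpG sites is laid down, copied and removed by a small set of proteins, and the 10 genes described here encode most of the core of that set: the methyltransferases *Dnmt1*, *Dnmt3a* and *Dnmt3b*, the RING finger proteins *Uhrf1* and *Uhrf2*, the remodelling ATPase *Hells* with its zinc finger partner *Cdca7*, and the dioxygenases *Tet1*, *Tet2* and *Tet3*. They were chosen by name, and all 10 were found among the 19938 genes that carry a single symbol on the array. Their RNA was measured in N2A cells, a mouse neuroblastoma line of sympathetic character, on Affymetrix Mouse Gene 1.0 ST arrays. Both groups were kept in medium with 10% serum and were transiently transfected with 1.5 µg of a short hairpin RNA vector, either non-targeting (control, n = 3) or directed against the long noncoding RNA *Paupar* (knockdown, n = 3), each array being labelled a biological replicate, and RNA was taken 2.5 days later. *Paupar* is transcribed upstream of *Pax6*. The annotation assigned 0 probe sets to *Paupar*, so its own level was not analysed here. In a transient transfection, cells that took up no vector stay in the culture, and the share of such cells is not given in the sources used here.

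DNA methylation has to be copied at every S phase. UHRF1 binds hemimethylated CpG behind the replication fork and brings in DNMT1, the maintenance methyltransferase, while HELLS, activated by CDCA7, opens nucleosomal DNA to it. DNMT3A and DNMT3B set methyl groups on unmethylated sites, and the TET enzymes oxidise 5-methylcytosine as the first step of its removal. Several of the maintenance genes are E2F targets and are expressed most in dividing cells, while *Dnmt3a* and *Tet3* are prominent in neurons.

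The values are log2 expression values, so a difference of 1 is a factor of 2, and the number of arrays limits their precision. A value belongs to a probe set (transcript cluster), and the level of one gene cannot be set against that of another. Array medians over named genes lay between 7.85 and 7.92. Of 17 measured markers of sympathetic neuroblastoma, 14 or 15 lay above the array median on every array. These included the sympathetic transcription factors *Phox2a*, *Hand2*, *Gata2*, *Gata3* and *Isl1*. The sympathetic factor *Hand1* lay below the median on every array but knockdown replicate 2, and the neurofilament genes *Nefl* and *Nefm* were low. Of the markers of other tissues, at most 2 of 10 for glia, 3 of 12 for fibroblasts and muscle and 1 of 10 for blood and endothelium lay above the array median. The log2 summed level of the neuroblastoma markers was 15.54 to 15.56 in controls and 15.29 to 15.43 upon knockdown, while the glial sum was 10.65 to 10.88 and 10.79 to 10.93, the fibroblast and muscle sum 10.71 to 10.95 and 10.87 to 10.96, and the blood and endothelial sum 10.00 to 10.35 and 10.14 to 10.29. Among the neuroblastoma markers *Dbh*, *Th* and *Chgb*, genes of catecholamine synthesis and storage, fell (log2 fold changes -1.09, -0.68 and -0.45), with calls in 6, 3 and 1 of 6 fits that each leave out 1 array, and the part of these shifts in the results on the 10 genes was not tested. In a culture, fewer cells of a kind and less RNA per cell cannot be told apart. Control replicate 1 stood apart from the other controls, since 38 genes of DNA replication averaged 0.36 below the control mean on it and 0.19 and 0.17 above it on control replicates 2 and 3. Knockdown replicate 3 stood apart from the other knockdown arrays. Its median absolute difference over genes was 0.13 from each of them and 0.12 from control replicate 3, while knockdown replicates 1 and 2 differed by 0.08.

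*Dnmt1*, *Uhrf1*, *Hells*, *Cdca7* and *Dnmt3b* had higher means upon *Paupar* knockdown, the 3 *Tet* genes had lower means, and *Uhrf2* and *Dnmt3a* differed by 0.01 or less. *Cdca7* and *Dnmt3b* were the members that passed the test, and both rose. Among 9969 genes left after removal of the less variable ones, 7.54% changed in limma at a Benjamini-Hochberg adjusted p under 0.05, with 2.39% rising and 5.16% falling. Of the 10 members 7 passed the variance filter, 2 of these rose, none fell and 5 did not pass the test; *Uhrf2*, *Dnmt3a* and *Tet3* varied too little to enter it, and their values come from a fit to all genes. The filter also lets a gene in through the difference between the groups, so the count over the 7 is a description. All 3 knockdown values lay above all 3 control values for *Dnmt1*, *Uhrf1*, *Cdca7* and *Dnmt3b* (4 of 10 members, against 12.8% of all genes), and below them for *Tet1* and *Tet3* (2 of 10, against 10.8%). The median log2 fold change was 0.16 over the members and 0.03 over all genes.

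**Figure D1:**
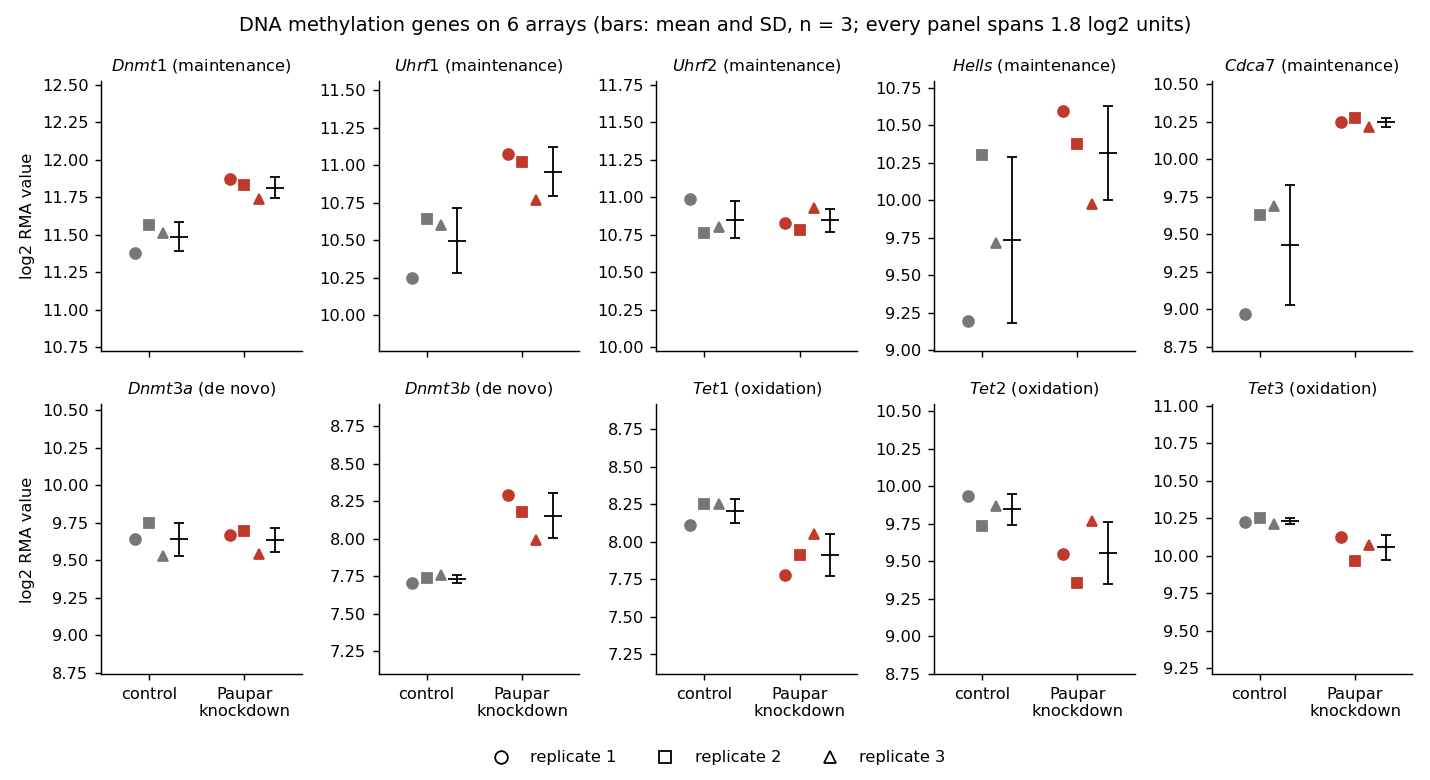
Log2 expression value (y axis) of each of the 10 genes on the 3 control (grey) and 3 *Paupar* knockdown (red) arrays; the marker gives the replicate and the bars the mean and SD of each group (n = 3). The 3 knockdown values of *Cdca7* lie between 10.21 and 10.27, above controls at 8.97, 9.62 and 9.69, and those of *Dnmt3a* and *Uhrf2* lie among the controls.

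Promoter sequences are shown first, for the members that hold the motif bound by E2F factors, the transcription factors of S phase entry, and for the members that passed the test. Promoter windows of 250 bases before to 50 bases after a start site were taken from RefSeq (GRCm38.p6), in which all 10 members matched with 15 windows. Both strands were searched for TTTCCCGC, TTTCGCGC, TTTGCCGC and TTTGGCGC, the 4 forms of the E2F octamer, which do not overlap one another in these windows. Of all 32851 windows 2.26% held an octamer, and so did a window of 2.6% of the 27025 genes. Of the 10 members 4 had one, and these were *Dnmt1*, *Uhrf1*, *Hells* and *Cdca7*. Every form of the octamer contains a CpG, and the member windows that hold one had 26 to 34 CpG, where the median of all windows was 7. *Dnmt1* and *Uhrf1* also had several windows each. The share with an octamer among genes with like windows was not computed. In the following stretches of 30 bases, on the strand of the gene, capitals mark the octamer.

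*Cdca7*, chr2:72476137-72476166, plus strand, 71 bases before the start: tgcgtcccggcGCGGGAAAgccggtggccc
*Hells*, chr19:38930917-38930946, plus strand, 62 bases before the start: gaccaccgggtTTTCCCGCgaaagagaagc
*Uhrf1*, chr17:56304117-56304146, plus strand, 185 bases before the second annotated start: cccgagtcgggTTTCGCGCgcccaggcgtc
*Dnmt1*, chr9:20952824-20952853, minus strand, 219 bases before the third annotated start: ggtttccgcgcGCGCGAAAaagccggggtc
*Dnmt1*, chr9:20952574-20952603, minus strand, 33 bases after the same start: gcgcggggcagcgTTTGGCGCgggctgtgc

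The windows of *Hells*, *Uhrf1* and *Dnmt1* that hold the octamer belong to starts inside the annotated gene, 728, 976 and 7265 bases from its first base. The outermost start sites of *Uhrf1* and *Dnmt1* had no octamer in their windows. *Dnmt3b*, which rose as well, had no octamer in its window, nor had *Uhrf2*, *Dnmt3a*, *Tet1*, *Tet2* or *Tet3*. The bases before the first annotated base of the 2 members that passed the test read as follows, with the octamer of *Cdca7* in capitals.

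*Cdca7*, chr2:72475969-72476186, plus strand: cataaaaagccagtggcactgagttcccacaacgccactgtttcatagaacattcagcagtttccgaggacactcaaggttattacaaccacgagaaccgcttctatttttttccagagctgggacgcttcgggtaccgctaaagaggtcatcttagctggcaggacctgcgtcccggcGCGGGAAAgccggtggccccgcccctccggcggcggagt
*Dnmt3b*, chr2:153649199-153649410, plus strand: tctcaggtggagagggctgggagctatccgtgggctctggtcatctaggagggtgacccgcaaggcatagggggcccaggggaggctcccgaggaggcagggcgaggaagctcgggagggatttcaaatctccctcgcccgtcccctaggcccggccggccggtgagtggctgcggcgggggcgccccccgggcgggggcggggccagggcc

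Each of these stretches holds 16 CpG dinucleotides, in 218 and 212 bases. The full 300-base windows of the members held between 2 CpG, at the outermost start of *Dnmt1*, and 57, at *Tet2*, where the median of all windows was 7. Further promoter motifs were read in the same way. The CHR element (TTTGAA or TTCGAA), found in a window of 21.7% of genes, was present in windows of *Dnmt1* and *Dnmt3b*. The CCAAT box, found in 41.1% of genes, was present in those of *Dnmt1*, *Uhrf1* and *Tet3*. A match is a run of letters and was not tested for binding. Across the array, genes with an E2F octamer had a median log2 fold change of 0.08 (543 measured genes, 31 risen and 7 fallen of 298 that passed the variance filter), and genes with windows but no octamer had 0.03 (15071 measured, 167 risen and 408 fallen of 7481). With the members left out, the octamer genes again had 0.08 (539 measured, 30 risen and 7 fallen of 294). The groups of genes were not matched for CpG content, and a part of E2F factors in these changes was not tested.

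The maintenance pathway held the largest rise of the 10 genes. *Cdca7*, the activator of HELLS and a direct target of E2F and MYC, gave 8.97, 9.62 and 9.69 on control replicates 1, 2 and 3 and 10.25, 10.27 and 10.21 on knockdown replicates 1, 2 and 3. The knockdown arrays lay close together, while control replicate 1 was low. The level rose from 9.43 ± 0.40 to 10.24 ± 0.03 (mean ± SD, n = 3 per group), a 1.76-fold higher level (log2 fold change 0.82, SE 0.16, limma adjusted p = 0.0112). *Cdca7* passed whichever array was left out, with a log2 fold change of 0.59 without control replicate 1 and up to 0.95 without the others.

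*Hells* encodes the remodelling ATPase that CDCA7 activates, and both genes are mutated in the human immunodeficiency, centromeric instability and facial anomalies (ICF) syndrome. *Hells* gave 9.19, 10.30 and 9.71 in controls and 10.59, 10.38 and 9.97 upon knockdown. The groups overlapped, as control replicate 2 lay above knockdown replicate 3, and the controls spread over more than 1 log2 unit. The mean was 0.58 higher upon knockdown (SE 0.22, 95% confidence interval 0.10 to 1.05), which did not pass (limma adjusted p = 0.122). *Hells* had an adjusted p of 0.0108 and a log2 fold change of 0.86 in limma without control replicate 2, and a log2 fold change of 0.31 without control replicate 1. The change of *Hells* and that of *Cdca7* differed by -0.24 (*Hells* minus *Cdca7*, exact permutation test over arrays, two-sided p = 0.50). The per-array differences overlapped between groups.

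*Uhrf1*, the reader of hemimethylated CpG, gave 10.25, 10.64 and 10.60 in controls and 11.08, 11.02 and 10.77 upon knockdown. The groups did not overlap. Its mean was 1.37-fold higher upon knockdown (log2 fold change 0.46, SE 0.14, 95% interval 0.16 to 0.75), just above the threshold (limma adjusted p = 0.0578). *Uhrf1* passed without control replicate 2 (adjusted p = 0.0431) or knockdown replicate 3 (adjusted p = 0.0311) in limma, and without another array it did not.

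*Dnmt1*, the maintenance methyltransferase, gave 11.38, 11.56 and 11.51 in controls and 11.87, 11.83 and 11.74 upon knockdown. The groups did not overlap and the spread within each was small (SD 0.10 and 0.07). The difference of 0.33 (SE 0.12, 95% interval 0.08 to 0.58), or 1.25-fold, did not pass (limma adjusted p = 0.10), and it did not pass with any array left out. *Dnmt1* and *Uhrf1*, whose products act together, differed in their change by -0.13 (*Dnmt1* minus *Uhrf1*, exact permutation p = 0.30).

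*Uhrf2*, the paralogue of *Uhrf1*, did not share this pattern. It gave 10.99, 10.76 and 10.80 in controls and 10.83, 10.78 and 10.93 upon knockdown, so the groups lay within each other. The log2 fold change was -0.01 (95% interval -0.21 to 0.20), and its sign turned with the scaling of the arrays. The change of *Uhrf1* exceeded that of *Uhrf2* by 0.46, and the differences overlapped between groups (exact permutation p = 0.20).

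Of the de novo methyltransferases, *Dnmt3b* rose and *Dnmt3a* had nearly the same mean in both groups. *Dnmt3b* gave 7.70, 7.74 and 7.76 in controls and 8.29, 8.18 and 7.99 upon knockdown. The controls lay close together (7.73 ± 0.03, n = 3) and below every knockdown array (8.16 ± 0.15, n = 3). The control values were below the array medians over named genes (7.85 to 7.92), and the knockdown values were above them. The level was 1.34-fold higher (log2 fold change 0.42, SE 0.12, limma adjusted p = 0.0477), close to the threshold. It did not pass when control replicate 1, 2 or 3 or knockdown replicate 1 or 2 was left out (limma adjusted p = 0.0757 to 0.220), although the log2 fold change stayed between 0.35 and 0.50. With the replicate number as a block the limma adjusted p was 0.0675.

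*Dnmt3a*, whose product is the chief de novo methyltransferase of postmitotic neurons, gave 9.64, 9.75 and 9.53 in controls and 9.67, 9.69 and 9.54 upon knockdown. The log2 fold change was -0.01 with a 95% interval of -0.21 to 0.20. Its sign turned with the scaling of the arrays. The change of *Dnmt3b* exceeded that of *Dnmt3a* by 0.43, and the change of *Dnmt1* exceeded it by 0.33. In both pairs the per-array differences did not overlap between groups (exact permutation p = 0.10 for each, the smallest p that 3 arrays against 3 allow, and 0.40 adjusted over the 8 pairs compared).

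**Figure D2:**
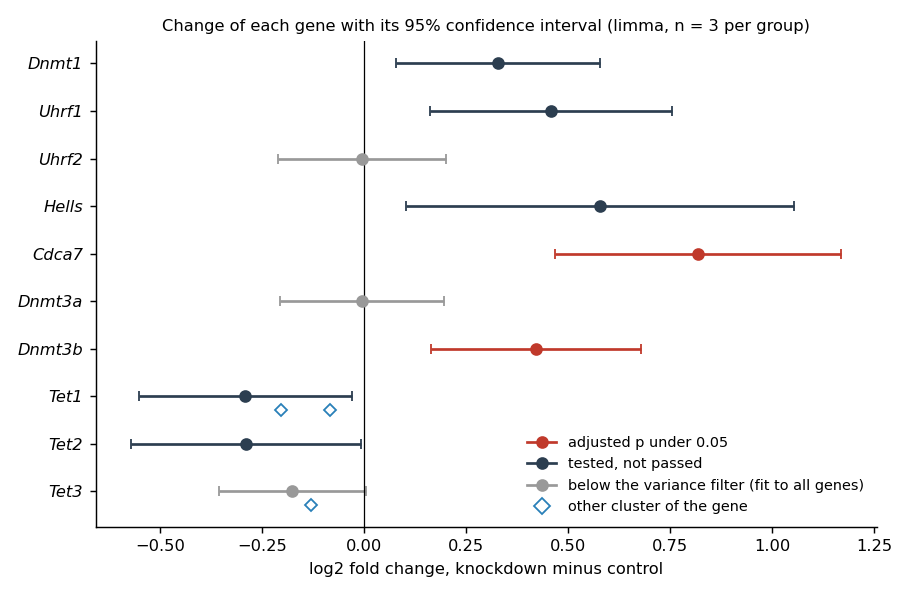
Log2 fold change of each gene (x axis, knockdown minus control) with its 95% confidence interval from limma (n = 3 per group); red marks genes with an adjusted p under 0.05, dark points genes that were tested and did not pass, and grey points genes below the variance filter. Open diamonds give the further probe sets of *Tet1* and *Tet3*, which lie on the same side of 0 as the probe set kept.

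The 3 *Tet* genes had negative log2 fold changes, and none of them passed. *Tet1*, which carries a CXXC domain that binds CpG-rich DNA, gave 8.11, 8.25 and 8.25 in controls and 7.78, 7.91 and 8.05 upon knockdown. Every knockdown array lay below every control (log2 fold change -0.29, SE 0.12, 95% interval -0.55 to -0.03, limma adjusted p = 0.150). The other probe sets of *Tet1* had log2 fold changes of -0.20 and -0.08.

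*Tet2*, the family member without a CXXC domain of its own, gave 9.94, 9.73 and 9.87 in controls and 9.55, 9.35 and 9.77 upon knockdown. Knockdown replicate 3 lay above control replicate 2, so the groups overlapped. The log2 fold change was -0.29 (SE 0.13, 95% interval -0.57 to -0.01, limma adjusted p = 0.180).

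*Tet3* gave 10.23, 10.25 and 10.21 in controls and 10.13, 9.96 and 10.07 upon knockdown, with no overlap and little spread among controls (SD 0.02). Its log2 fold change was -0.18 (SE 0.08, limma adjusted p = 0.286 over all genes), and a second probe set had -0.13. The changes of the 3 *Tet* genes differed from each other by at most 0.12 (exact permutation p = 0.30 to 1.0), and with each array left out in turn all 3 log2 fold changes remained negative, between -0.40 and -0.13.

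The members with higher means upon knockdown were read beside the DNA replication genes of the same array. Relative to the control mean, the 38 replication genes averaged 0.62, 0.59 and 0.40 on knockdown replicates 1, 2 and 3. *Hells* stood at -0.54, 0.56 and -0.02 on the controls and at 0.86, 0.64 and 0.24 on the knockdown arrays. *Cdca7* stood at -0.46, 0.20 and 0.26 and at 0.82, 0.85 and 0.79. Control replicate 1 was thus the lowest control for *Cdca7*, *Hells*, *Uhrf1* and *Dnmt1*, as it was for DNA replication, and the part of that array in these differences was read by leaving it out: the log2 fold changes were then 0.59, 0.31, 0.33 and 0.27.

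All 38 replication genes had log2 fold changes above 0, so the distance of a member from their mean is given as a description and only for the 5 members with higher means. From control to knockdown *Cdca7* changed by 0.28 relative to that mean, with no overlap between groups. *Dnmt1* changed by -0.21 relative to it, without overlap, and *Uhrf1*, *Hells* and *Dnmt3b* by -0.08, 0.04 and -0.11, with overlapping groups. For *Cdca7* and for *Dnmt1* the exact permutation p was 0.10, the smallest that 3 arrays against 3 allow. Adjusted over all members it was 0.143 for each. The share of all genes without overlap on this measure was not computed.

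**Figure D3:**
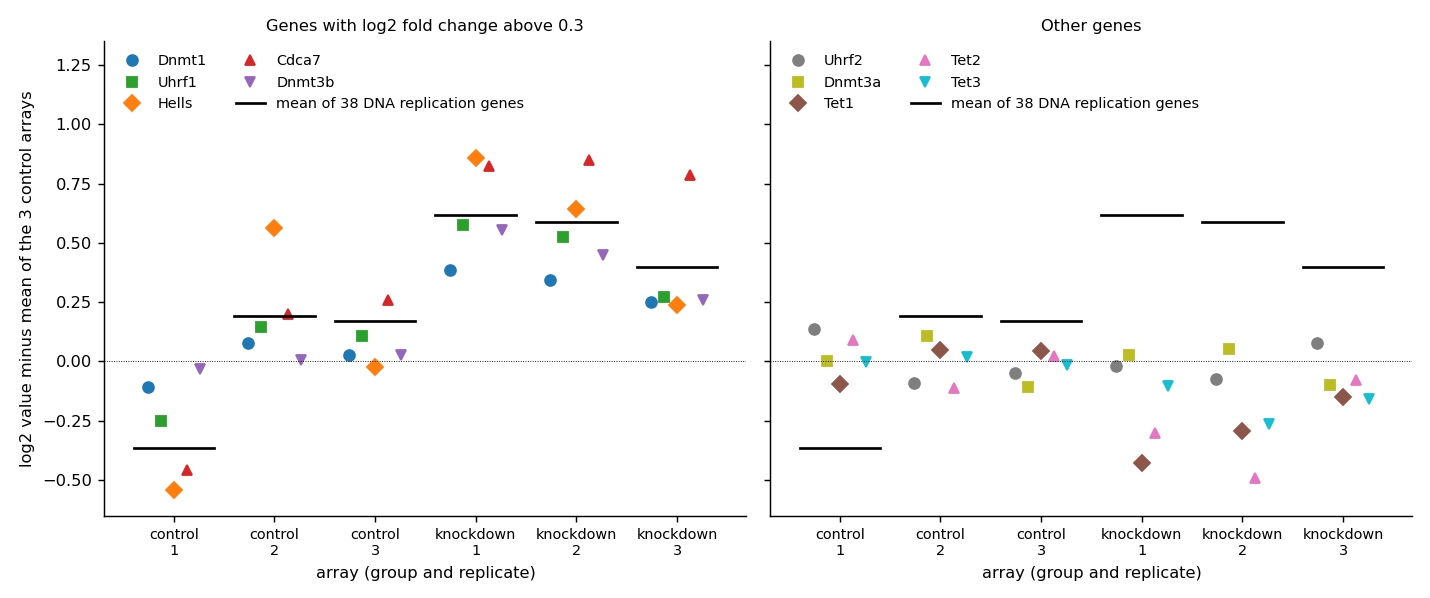
Deviation of each array from the control mean (y axis, log2 units) for the genes with a log2 fold change above 0.3 (left) and the other genes (right); black bars give the mean of 38 DNA replication genes. The black bar is at -0.36 for control replicate 1 and at 0.62, 0.59 and 0.40 for knockdown replicates 1, 2 and 3, and the *Tet* genes lie below 0 on all 3 knockdown arrays.

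The replication genes themselves rose in part. Of 38 measured, 35 entered the test, of which 17 rose and none fell, and the median log2 fold change was 0.52. Of all tested genes 2.39% rose and 5.16% fell. *Rrm2*, a subunit of ribonucleotide reductase, rose 2.08-fold, *E2f2*, an activator of S phase genes, 1.86-fold, *Cdc6*, a loader of the replicative helicase, 1.83-fold, and *Ccne2*, a cyclin of S phase entry, 1.75-fold. *Mcm3*, part of the helicase, rose 1.74-fold, and *Rpa2*, a subunit of the single-strand binding protein, 1.67-fold. Of 22 measured mitosis genes 18 entered the test, of which 6 rose and none fell (median 0.39). The risen ones were *Nuf2*, a kinetochore protein (1.43-fold), *Kif11*, a spindle motor (1.41-fold), the checkpoint gene *Bub1b* (1.37-fold), and *Plk1*, *Birc5* and *Aurkb* (each 1.34-fold), a mitotic kinase and 2 members of the chromosomal passenger complex. Both lists were chosen with earlier results of these data known and are no independent evidence of a direction. Of 6 fits that each leave out 1 array, *Rrm2*, *E2f2* and *Cdc6* passed in 6, *Mcm3* in 4, *Ccne2* in 3 and *Rpa2* in 2, while *Nuf2*, *Kif11* and *Bub1b* passed in 2, *Plk1* and *Birc5* in 1 and *Aurkb* in 0. With 1 array left out, between 3 and 24 replication genes and between 0 and 8 mitosis genes passed.

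Genes that work beside the 10 members were read in short lists, and the counts in them are a description. Of 25 measured partners and cofactors 14 entered the test, of which 1 rose and 1 fell (median 0.08), where 7.54% of all tested genes changed. *Pclaf*, a PCNA-binding protein that helps recruit DNMT1 to replicating chromatin, gave 10.96, 11.52 and 11.39 in controls and 11.88, 11.98 and 11.76 upon knockdown. It rose 1.50-fold (log2 fold change 0.59, SE 0.15, limma adjusted p = 0.0286) and passed in 2 of 6 fits with an array left out, failing without control replicate 1 or 3 or knockdown replicate 1 or 2.

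*Idh1*, the cytosolic isocitrate dehydrogenase that makes 2-oxoglutarate, the cosubstrate of TET enzymes, gave 11.71, 11.67 and 11.70 in controls and 10.94, 10.94 and 11.27 upon knockdown. The controls hardly differed, and *Idh1* fell 1.56-fold (log2 fold change -0.64, SE 0.12, limma adjusted p = 0.0095). It passed in 3 of 6 fits with an array left out, failing when control replicate 3 or either of knockdown replicates 1 and 2 was absent. The partners nearest to the threshold, named here after their values were seen, were *Lig1*, the ligase of the replication fork, with a log2 fold change of 0.45 (limma adjusted p = 0.0568), *Atrx*, a chromatin remodeller, with -0.42 (adjusted p = 0.0579), and *Pcna*, the sliding clamp, with 0.40 (adjusted p = 0.0763).

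Over all tested genes 7.54% changed, with 2.39% rising and 5.16% falling. Of 8 measured readers of methylated DNA 6 entered the test, and of these *Zbtb38*, a zinc finger protein that binds methylated CpG, fell and none rose (median 0.07). It gave 10.24, 10.10 and 10.27 in controls and 9.77, 9.63 and 9.91 upon knockdown (log2 fold change -0.43, SE 0.12, limma adjusted p = 0.0454). It lost the call with arrays centred on their medians and when any of control replicates 1 and 3 or knockdown replicates 1 and 2 was absent. With the replicate number as a block it was lost too. Among 10 measured genes of base excision and the GADD45 family 7 entered the test and none passed (median 0.17), and the largest differences were 0.29 for *Ung*, a uracil glycosylase, and 0.28 for *Gadd45b*. Among 13 genes of the methyl donor cycle 7 entered the test and none passed either (median 0.06), with 0.50 for the folate enzyme *Shmt1* and -0.29 for *Ahcyl1*.

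**Figure D4:**
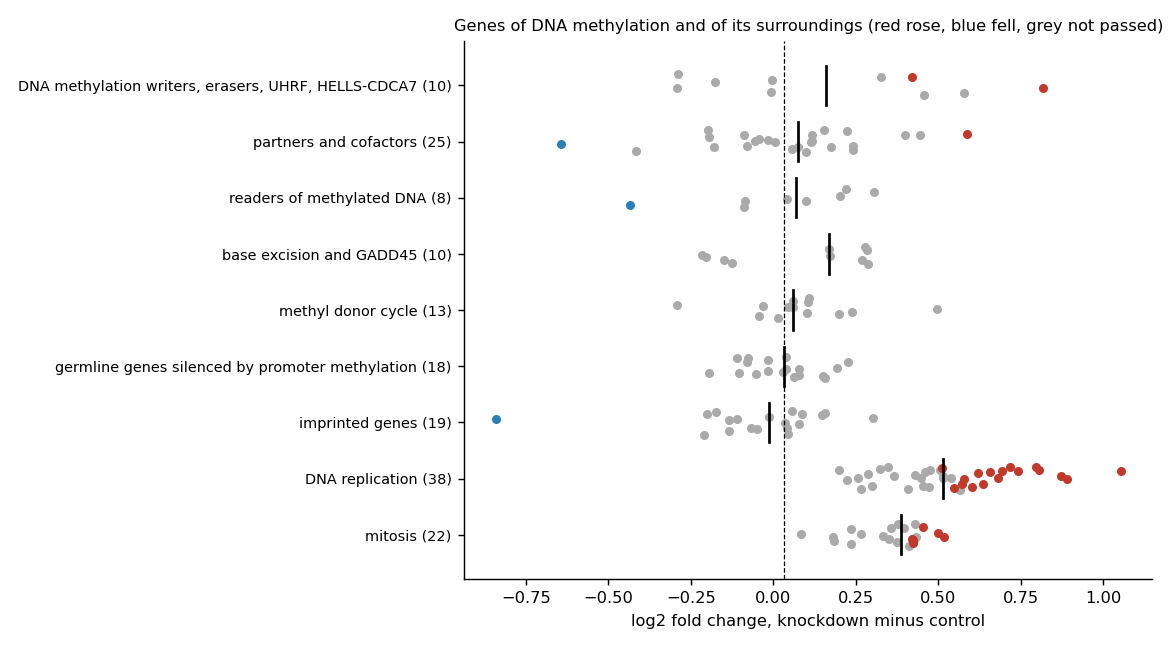
Log2 fold change (x axis, knockdown minus control) of each measured gene in 9 groups, with the number of genes in parentheses; red points rose, blue points fell (limma adjusted p under 0.05), grey points did not pass or were below the variance filter, black bars are group medians and the dashed line is the median of all genes (0.03). The DNA replication genes centre on 0.52, while the germline genes centre on 0.03.

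Germline and imprinted genes, many of which are known to be regulated by DNA methylation, were read as well. The shares over all tested genes were 2.39% rising and 5.16% falling. Of 18 germline genes listed because promoter methylation silences them in many somatic cells, 7 entered the test and none passed (median 0.03, the same as that of all genes). Not all of them were low here, since *Asz1* (11.53), *Tdrkh* (9.63) and *Dazl* (8.24) had control means above the array medians. Over the 18 genes the log2 fold changes ran from -0.19 for *Sycp3*, a protein of the synaptonemal complex, to 0.23 for *Taf7l*, a germ cell transcription factor. Of 19 imprinted genes 7 entered the test, 1 of these fell and none rose (median -0.01). *Peg3*, a paternally expressed zinc finger gene, gave 12.30, 12.02 and 12.05 in controls and 11.19, 11.09 and 11.57 upon knockdown. It fell 1.79-fold (log2 fold change -0.84, SE 0.14, limma adjusted p = 0.0043) and passed whichever array was left out. DNA methylation itself was not measured in these samples.

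**Figure D5:**
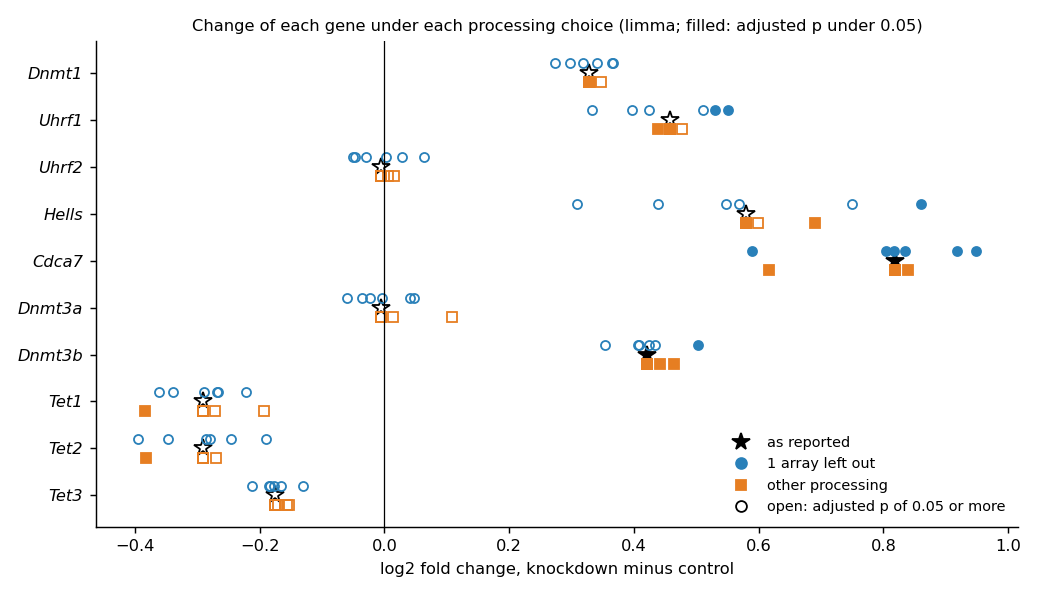
Log2 fold change (x axis, knockdown minus control) of each gene as reported (star), with 1 array left out (circles) and with other processing (squares); filled symbols have an adjusted p under 0.05 in limma, and symbols at equal values lie on top of each other. All symbols of *Cdca7*, *Hells*, *Uhrf1*, *Dnmt1* and *Dnmt3b* lie above 0 and all symbols of the *Tet* genes below it, while those of *Uhrf2* and *Dnmt3a* lie on both sides.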

How the data were processed

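The deposited log2 values of 6 arrays (200 ng RNA each) were used. Per the study's methods, the authors background corrected, quantile normalised and summarised the arrays by RMA; no version or genome build is named in those sources. Clusters of probes were named through the platform annotation: 21789 of 35556 had 1 symbol, and a gene with several such clusters is represented by its brightest on average. The lower 50% of genes by interquartile range were removed (the methods give a variance cut-off of 0.5; the measure was chosen here). The group difference was fitted with limma 3.58.1 under R 4.3.3 (lmFit, then eBayes), and p-values were adjusted by Benjamini and Hochberg's procedure. The variance filter and the limma fit were tested on simulated data. Those data held no deviations shared by the genes of an array, so arrays that stand apart were not covered. Pairs of members were compared by exact two-sided permutation over arrays. The members, pathway lists, pairs and motifs were chosen with earlier results of these data known. All 10 members, and in each list up to 6 genes that passed or, where none did, the 2 largest differences, were named. Listed genes without a single-symbol cluster were not analysed here.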

Additional observations from a re-analysis of the deposited data

How the results depend on the processing

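The 15 alternatives were the absence of the variance filter, a filter by sample variance, all clusters, the mean over clusters, median centring, array weights, an intensity trend, removal of dim genes, the replicate block and each array left out. The 752 changed genes (2 members) became 0 (0 members) with all 35556 clusters kept, although 3015 of 17778 clusters had an unadjusted p under 0.05 in limma, and 5561 (7 members) with array weights. With 1 array left out the counts ran from 112 to 1239 genes and from 1 to 3 members (1 without control replicate 1 or 3 or knockdown replicate 1 or 2, and 3 without control replicate 2 or knockdown replicate 3). The cause of these shifts was not tested. 4 members passed with the filter by sample variance, and 4 with dim genes removed. With the replicate block 680 genes and 1 member passed (*Cdca7*, while *Dnmt3b* was lost). The deviations of same-numbered arrays from their group means had r = -0.29, 0.06 and 0.08. Those of differently numbered arrays ran from -0.32 to 0.37. Whether same-numbered arrays share more than a number cannot be told from so few values. *Cdca7* kept its call in 14 of 15 alternatives and *Dnmt3b* in 8. The log2 fold changes of 8 members kept their sign in all 15. That of *Uhrf2* turned to 0.0147 with median centring and 0.00525 with array weights, and ran from -0.0506 to 0.0636 with an array left out. That of *Dnmt3a* turned to 0.0145 and 0.11, and ran from -0.0602 to 0.0482. The difference between *Tet1* and *Tet2* was 0.10 with the mean over clusters and ran from -0.0994 to 0.0799 with an array left out. Other listed genes were recomputed in the same way, which was decided after the data were seen.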
